A study of Mus musculus with 12 samples.

Results

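This account sets 3 adult forebrain RNA libraries against 6 forebrain RNA libraries taken at birth (P0), all 9 carrying the digit 2 as the first code in their column name, out of 44 RNA libraries in the authors' expression table. The study compared mice with a germline Chd8 deletion allele on 1 copy (Chd8+/del5, labelled Het) with wild-type (WT) littermates on the C57BL/6N strain. Bulk forebrain was dissected from embryos at e12.5, at e14.5 and at e17.5, from newborns at P0 and from adults labelled P56. Polyadenylated RNA was sequenced with a stranded kit as single ends of 50 bp, except at e12.5, which was read as paired ends of 100 bp. The labels list 10 RNA samples, a WT and a Het sample for each of 5 stages. No label explains the codes in the column names, so no library is given a genotype here, and the libraries are called code 2 or code 1. The code 2 set was picked because Chd8 is lower in it than in code 1 and because it leaves out an adult code 1 library with juvenile levels of many genes. Library numbers within a stage and code follow the columns and serve only as names.

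Chd8 encodes an enzyme that moves nucleosomes, and its level differed by code as well as by age. Chd8 had 3.42, 3.18 and 3.08 log2 RPKM in the code 2 adult libraries, against 3.69 to 4.14 (median 3.83) in the code 2 P0 libraries. The adult and P0 ranges did not overlap, but the medians differed by less than 1 log2 unit (-0.64). Within adults the code 2 median was 3.18, against 4.10 in the 3 code 1 libraries, a ratio of 0.529. At P0 the code 2 median was 3.83, against 4.44 in the 5 code 1 libraries, a ratio of 0.653. The code 2 libraries lay below every code 1 library of their stage at all 5 stages, which is a description only, since the lower Chd8 level was a reason for choosing code 2. RPKM is the read count scaled by gene length and library size, and every level below is in log2 RPKM unless stated otherwise.

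**Figure D1:**
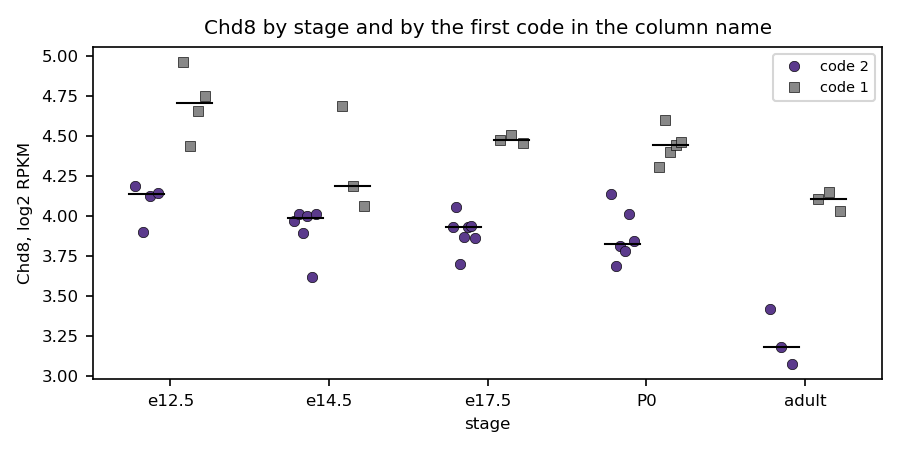
Chd8 level in log2 RPKM (vertical axis) by stage (horizontal axis), with code 2 libraries as circles left of code 1 libraries as squares, and a bar at each median. At each of the 5 stages every circle lies below every square, and the adult code 2 libraries, at 3.08 to 3.42, are the lowest.

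The forebrain of a newborn mouse still makes glia and neurons, and its young neurons extend axons and form their first synapses. In the weeks that follow, oligodendrocytes wrap axons in myelin, astrocytes and microglia mature, ion channels and receptor subunits are exchanged for adult forms, and cell division is largely lost. In bulk tissue a lower level can mean fewer cells of a type or less RNA per cell, and the 2 cannot be told apart.

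The forebrain label was checked first. Emx1, a factor of cortex, had 4.78, 5.35 and 4.16 in adult libraries, against 4.33 to 5.01 (median 4.89) at P0. Some libraries stood apart within their stage. Adult library 3 had 160 genes more than 1 log2 unit above the median of the other adult libraries. The same count was 22 in adult library 1 and 61 in adult library 2. Its excess included genes of the choroid plexus, the tissue that secretes cerebrospinal fluid, and results that rest on it are given with and without it. P0 library 3 had 58 genes more than 1 log2 unit above the median of the other P0 libraries, and the other P0 libraries had 2 to 29. Sex also differed between the stages. Ddx3y, a Y-linked gene, was above 0 in 3 of 3 adult libraries and in P0 libraries 5 and 6, whereas Xist, the RNA of the inactive X chromosome, was above 0 in P0 libraries 1 to 4. Pearson correlations over genes ran from 0.977 to 0.992 between adult libraries, from 0.976 to 0.995 between P0 libraries and from 0.738 to 0.778 between the stages, as a description of libraries that share the same genes. Relative depth, read from the steps of 13 to 26 low values per library, was 1.04 to 1.16 in adult and 0.907 to 1.02 in P0 libraries.

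Adult and newborn forebrain differed over much of the transcriptome. A gene was called higher or lower in adults when the 3 adult libraries lay wholly above or below the 6 P0 libraries and the medians differed by at least 1 log2 unit, that is 2-fold. Of 12097 genes kept, 2113 (17.47%) were called higher in adults and 1964 (16.2%) lower. Ranges without overlap, of any size, were found for 8791 genes (72.7%), so the size threshold sets most of the count. The median difference over all genes kept was -0.02. At least 16-fold differences were reached by 127 genes higher and 87 genes lower in adults. The libraries are not labelled as replicates of a group, so no test was made and no p-value is given.

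Large differences were ranked over genes with a mean of at least 0. Among the largest with adults higher, 4 of the genes described here belong to myelin or its lipids. Mal, a myelin membrane protein, differed by 7.03. Mag, an adhesion protein of the innermost myelin layer, differed by 6.78, and Fa2h, which hydroxylates the fatty acids of myelin lipids, by 6.48. Mbp, which compacts the myelin sheath, had 8.66, 8.69 and 9.57 in adult libraries, against 2.37 to 3.11 (median 2.67) in P0 libraries. Adult library 3 was the highest of the adults for Mal, Mag, Fa2h and Mbp.

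The same group of large differences held genes of mature neurons. The largest was Scn4b, a beta subunit of sodium channels, with 6.71, 6.62 and 6.68 in adult libraries, against -2.28 to -1.33 (median -1.75) in P0 libraries. Its code 2 medians at e12.5, e14.5 and e17.5 were -1.95, -2.26 and -2.10, so it lay as low before birth as at P0. Hapln4, a link protein of the matrix around inhibitory synapses and nodes, differed by 6.92. The interneuron class markers Vip and Pvalb were far above their newborn levels. Vip had 5.78, 5.82 and 5.21 in adult libraries, against -2.03 to -0.18 (median -0.97) at P0. Pvalb had 6.52, 6.45 and 6.99 in adult libraries, against -1.16 to 0.72 (median 0.20) at P0. Slc30a3, the zinc transporter of glutamatergic vesicles, differed by 5.96. Lamp5, a membrane protein that marks a class of cortical interneurons, differed by 5.83. Gm11549, a predicted gene, differed by 6.50.

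The 12 largest differences with adults lower were led by a fetal RNA. H19, an imprinted noncoding RNA of fetal tissue, had -3.42, -4.47 and -2.69 in adult libraries, against 4.11 to 6.19 (median 5.31) in P0 libraries. It was not called in the code 1 libraries, whose adults had 5.39, -4.01 and -0.21. Eomes, the factor that marks intermediate progenitors of cortex, had -3.92, -4.20 and -1.63 in adult libraries, against 2.29 to 4.06 (median 3.14) in P0 libraries. Draxin, a repulsive cue for growing axons, differed by -7.02. Cd24a, a surface glycoprotein of young neurons, differed by -6.90. St8sia2, which builds polysialic acid on young neurons, differed by -6.38, and Dcx, which binds the microtubules of migrating neurons, by -6.27. Dpysl3, a collapsin response mediator in growing axons, stood at 3.03, 3.07 and 3.53 in adult libraries, against 8.86 to 9.06 (median 8.97) at P0. Aplnr, the apelin receptor, differed by -6.35, Adamts7, a metalloprotease, by -6.64, and Igfbpl1, known from immature neurons, by -5.95.

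Levels before birth differed among these genes. P2rx2, an ATP-gated ion channel, had code 2 medians of -0.56, 1.10 and 2.44 at e12.5, e14.5 and e17.5, and reached 2.89 to 3.21 (median 3.13) at P0, while the adult libraries lay at -3.58, -2.97 and -3.50. Trim67, a ubiquitin ligase family member of neurons, had medians of 2.92, 4.42 and 5.52 at the same embryonic stages, 5.70 to 5.99 (median 5.80) at P0 and -0.39, -0.12 and -0.04 in adults. Both were thus higher at P0 than at any other stage, whereas Eomes had medians of 5.10, 5.63 and 4.31 at e12.5, e14.5 and e17.5, all above its P0 median.

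**Figure D2:**
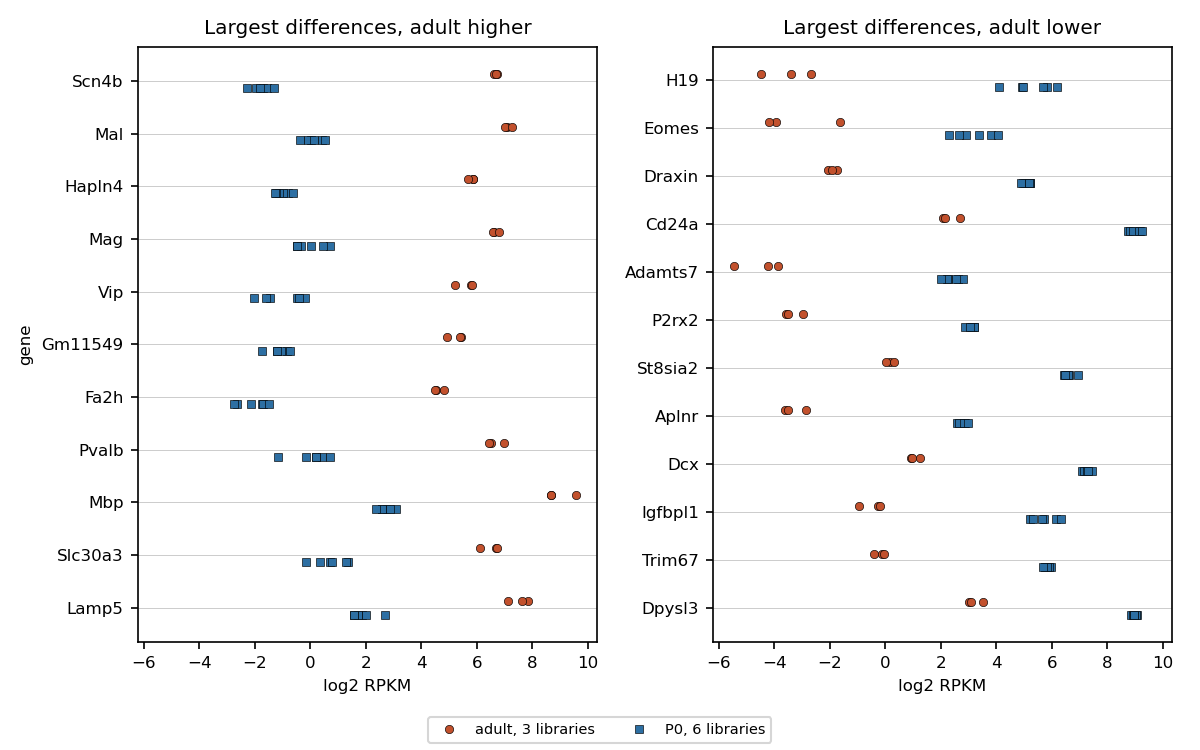
Levels in log2 RPKM (horizontal axis) of genes among those that differed most in each direction (vertical axis), with 3 adult libraries as circles above 6 P0 libraries as squares. In every row the 2 stages lie well apart, from 5.83 (Lamp5) to 8.43 (Scn4b) log2 units between medians on the left and from -5.90 (Dpysl3) to -8.73 (H19) on the right.

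The glial lists stood among the most one-sided of the 40 gene lists. Of 15 myelin genes, 13 were called higher in adults and 0 lower, with a median difference of 5.28, against -0.02 over all genes. Mobp, a small myelin protein, had 5.90, 5.70 and 6.55 in adult libraries, and the P0 libraries lay at -5.87 to -4.24 (median -5.28), at or near the lowest value the table gives for this gene. Opalin, a marker of myelinating oligodendrocytes, had 3.40, 3.73 and 4.17 in adults, while 5 of 6 P0 libraries shared its lowest value of -3.56. The 2 myelin genes outside the calls were the axonal adhesion genes Cntn2 (-0.97) and Nfasc (0.77). The summed myelin level was 1773, 1771 and 2485 RPKM in adult libraries, against 88.7 to 106 RPKM in P0 libraries.

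Factors and precursor markers of the oligodendrocyte lineage behaved differently from myelin. Of 11 such genes, 3 were called higher (27.3%, beside 17.47% of all genes), 0 lower, and the list's median difference was 0.39. The 3 called genes were Myrf, the factor that switches on myelin genes, at 4.09, 3.78 and 4.05 in adult libraries, against -1.38 to -0.13 (median -1.01) at P0, Nkx6-2 with a difference of 4.59, and Sox10 with 1.12, which missed the call under quantile normalization. Cspg4, the NG2 proteoglycan of precursors, was nearly level at 0.03.

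Astrocyte genes were called higher for 14 of 16 members and lower for 0, with a median difference of 2.42. S100b, a calcium-binding protein, had 6.34, 6.43 and 7.12 in adults, against 0.24 to 1.99 (median 0.96) at P0. Gpr37l1, a receptor of glia, differed by 5.38, Ntsr2, a neurotensin receptor of astrocytes, by 5.23, and Gjb6, the gap junction protein connexin 30, by 4.34. The smallest differences were those of Aldh1l1 (0.20) and Slc1a3, the glutamate transporter shared with radial glia (0.71).

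All 13 microglia genes kept were called higher in adults, with a median difference of 2.19. Tmem119, a microglial membrane protein, had 4.25, 4.30 and 4.10 in adult libraries, against -0.17 to 0.55 (median 0.33) at P0. Siglech differed by 3.57, Ctss, a lysosomal protease, by 2.91 and Csf1r, the receptor for the growth factors on which microglia depend, by 2.70. Fcrls had the smallest difference of the list, 1.43.

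Vessel genes were not uniform. Of 14 endothelial and barrier genes, 5 were higher (35.7%) and 1 was lower (7.14%), beside 17.47% and 16.2% of all genes. The list's median difference was 0.67. The transporters Slco1a4 (3.97), Slc2a1 (1.95) and Abcb1a (1.85) were higher in adults, while Kdr, the VEGF receptor of sprouting endothelium, was lower, with 1.15, 1.43 and 1.37 in adults, against 2.83 to 3.09 (median 2.96) at P0. Among 14 mural and meningeal genes 1 was higher (7.14%) and 6 were lower (42.9%). Collagens led the lower ones, with Col3a1 at -1.69, -0.21 and -0.88 in adult libraries, against 3.09 to 4.21 (median 3.75) at P0, and Col1a1 at a difference of -2.57. Only 2 genes of the red blood cell list were kept, and neither was called.

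**Figure D3:**
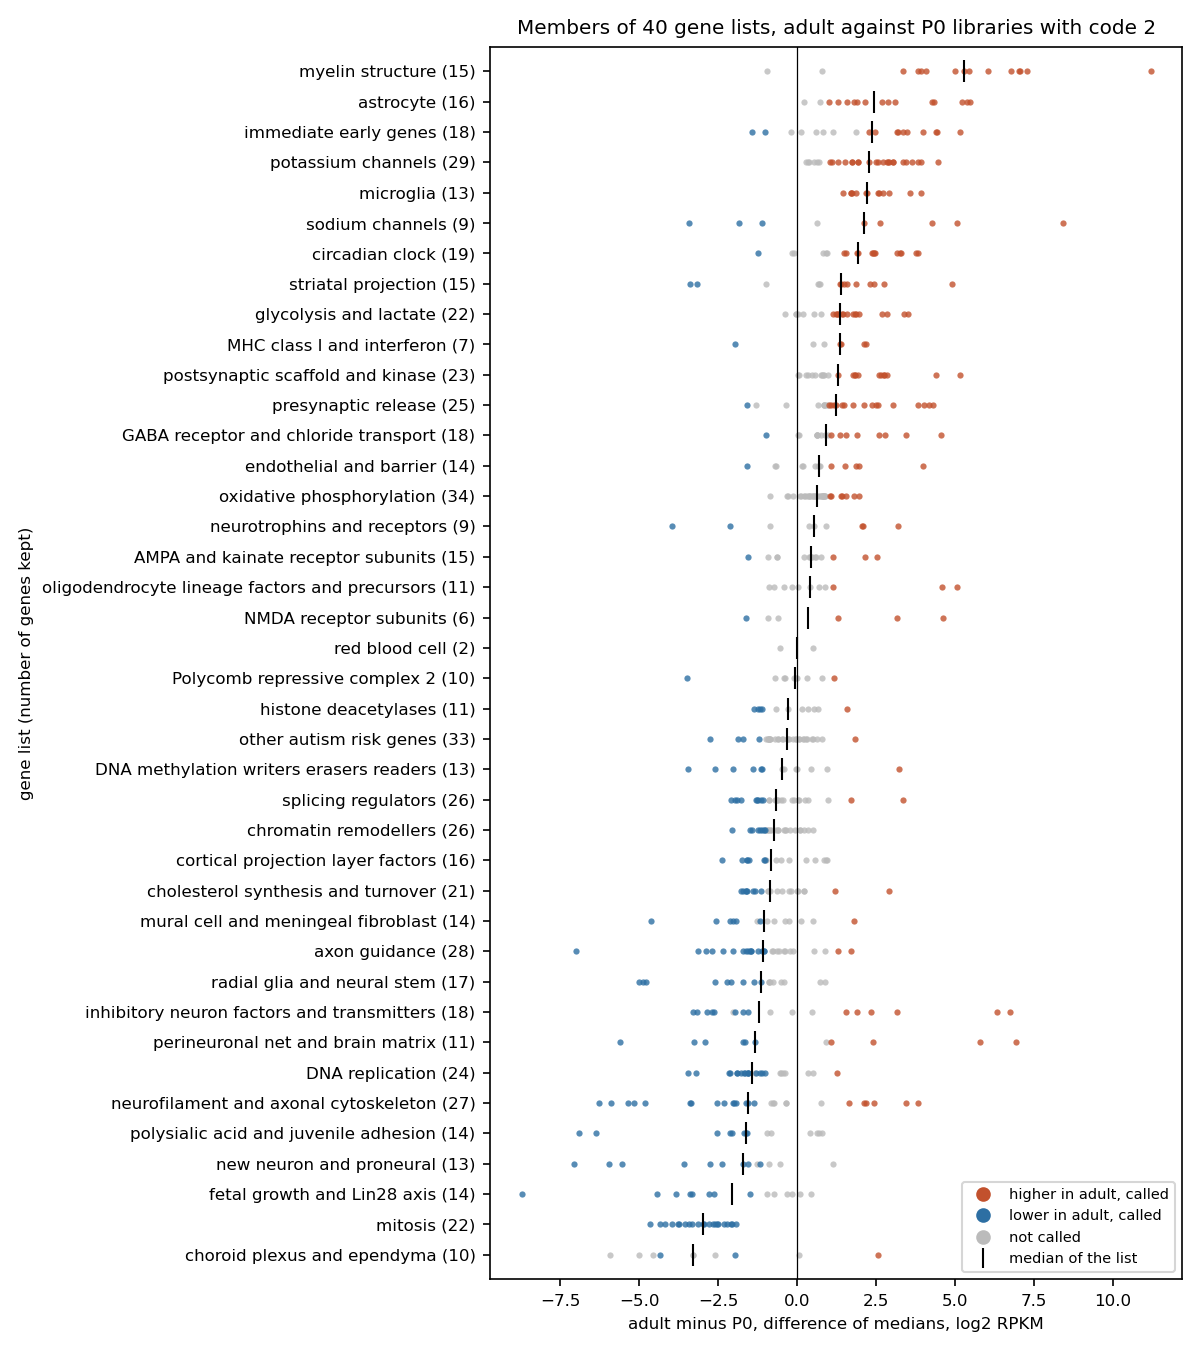
Difference of medians between adult and P0 libraries in log2 RPKM (horizontal axis) for each kept member of 40 gene lists (vertical axis, ordered by the list's median). Called genes are coloured by direction, grey genes were not called, and a black tick marks each list's median, from 5.28 for myelin to -2.98 for mitosis and -3.30 for choroid plexus and ependyma.

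Potassium channel genes were among the most one-sided neuronal groups. They were called higher for 23 of 29 members and lower for 0, with a median difference of 2.26. Kcnab2, an auxiliary subunit, had 7.50, 7.52 and 7.37 in adults, against 3.68 to 3.98 (median 3.87) at P0. Kcna1, an axonal channel subunit, differed by 4.46. Kcnj9 and Kcnj4, inward rectifiers, differed by 3.92 and 3.83. Sodium channels went both ways, with 5 of 9 higher and 3 lower. Scn2b, an auxiliary subunit, differed by 4.26, while Scn9a (-3.43) and Scn3a, the main form before birth (-1.84), were lower.

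Receptor subunits for fast transmission went both ways in small numbers. Of 6 NMDA receptor genes, 3 were higher (50%) and 1 was lower (16.7%), beside 17.47% and 16.2% of all genes. Grin2a had 1.64, 1.40 and 0.85 in adults, against -2.65 to -1.24 (median -1.76) at P0, and Grin2c differed by 4.62. Grin3a, a juvenile subunit, was lower by the call, with a difference of -1.63. A second NMDA gene, Grin2b, was also called lower without adult library 1 or 2 or without P0 library 3, 5 or 6 and when libraries were shifted to a common median, and in the code 1 libraries none was. Of 15 AMPA and kainate receptor genes, 3 were higher and 1 lower, with a median of 0.44. Those shares of 20% and 6.67% stand beside 17.47% and 16.2% of all genes, and 2 or 3 members were lower when libraries were rescaled. Cacng3, an auxiliary subunit of AMPA receptors, differed by 2.51, Gria3 by 2.14, and the kainate subunit Grik1 by -1.56. Cacng2 passed at 1.14, and it fell short of the call without adult library 1 (0.92) or adult library 2 (0.91). Of 18 GABA receptor and chloride transport genes, 8 were higher and 1 was lower. The lower one, Gabra5, lay at the size threshold and missed the call without adult library 2 or 3, without P0 library 2, 4 or 6, with a pseudocount and in the code 1 libraries. Gabrd, a subunit of extrasynaptic receptors, had 6.03, 5.94 and 5.74 in adults, against 0.82 to 1.60 (median 1.38) at P0, and Slc12a5, the chloride exporter KCC2, had 7.41, 7.37 and 7.12, against 4.33 to 5.23 (median 4.79).

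Synaptic machinery was higher in adults on both sides of the synapse. Presynaptic release genes were called higher for 16 of 25 members and lower for 1, with a median difference of 1.23. Snap25, a fusion protein of vesicles, stood at 11.11, 11.11 and 11.07 in adults, against 6.79 to 7.42 (median 7.27) at P0. Vamp1, its partner on vesicles, differed by 4.31 and the vesicular glutamate transporter Slc17a7 by 4.16. Postsynaptic scaffold and kinase genes were higher for 12 of 23 members and lower for 0. Camk2a, the synaptic kinase, had 9.61, 9.64 and 9.44 in adults, against 4.91 to 5.47 (median 5.22) at P0. The scaffold Homer2 was nearly level (0.03).

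Genes that neurons induce within minutes of activity were higher for 10 of 18 members and lower for 2, with a median of 2.38. Without adult library 1, without adult library 3 or with a pseudocount, 1 member was lower. Arc had 7.58, 7.06 and 5.77 in adult libraries, against 1.24 to 2.17 (median 1.90) at P0. Egr4 had 5.13, 5.65 and 4.08, against 0.44 to 1.40 (median 0.71), and Fosb had 3.37, 5.81 and 2.44, against -1.09 to -0.50 (median -1.01). Adult library 3 was the lowest adult for all 3, and the list's summed level was 803, 863 and 350 RPKM in adult libraries 1, 2 and 3, against 149 to 167 RPKM at P0. In Npas4, a factor induced by calcium entry, adult library 3 at 1.28 lay among the P0 libraries, while adult libraries 1 and 2 were at 3.41 and 3.22.

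Lists of the axonal cytoskeleton, juvenile adhesion and axon guidance had more lower than higher members. Of 27 neurofilament and axonal cytoskeleton genes, 15 were lower (55.6%) and 6 higher (22.2%) in adults. Their differences ran from -6.27 to 3.82. Tubb2b, a tubulin of young neurons, had 5.13, 5.55 and 5.17 in adults, against 10.30 to 10.58 (median 10.53) at P0, and Marcksl1, an actin regulator at growing membranes, differed by -5.18. Polysialic acid and juvenile adhesion genes were lower for 8 of 14 members and higher for 0, and St8sia4, the second polysialyltransferase, differed by -2.13. Axon guidance genes were lower for 16 of 28 members and higher for 2. Epha3 differed by -3.15, Nrp2, a semaphorin receptor, by -2.88 and Robo1, a Slit receptor, by -2.71.

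Extracellular matrix genes split, with 6 of 11 lower and 4 higher in adults. Tnc, a matrix protein of the progenitor zones, had -0.75, -0.36 and -0.53 in adults, against 4.92 to 5.41 (median 5.09) at P0. Vcan, a proteoglycan, differed by -2.91, and Has3, a hyaluronan synthase, by -3.27. On the adult side stood the link proteins Hapln2 (5.79) and Hapln4 (6.92), which fix matrix at nodes and around neurons.

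Genes of cell division moved as a block. All 22 mitosis genes kept were called lower in adults, with differences from -4.65 to -1.94 and a median of -2.98. Mki67, a protein of the surface of mitotic chromosomes, had -1.94, -2.21 and -2.48 in adults, against 2.09 to 3.04 (median 2.44) at P0. Cdk1, the kinase that starts mitosis, had -1.92, -2.20 and -3.00, against 1.82 to 2.74 (median 2.16), and Cenpf, a kinetochore protein, had -3.19, -2.96 and -3.52, against 0.41 to 1.35 (median 0.78). The summed level was 14.48, 13.53 and 12.37 RPKM in adult libraries, against 83.6 to 102 RPKM in P0 libraries 1 to 4 and 140 and 149 RPKM in P0 libraries 5 and 6. P0 libraries 5 and 6 are also those with Ddx3y above 0, and any part of sex in this difference was not tested.

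Promoter windows of 3 of these genes are printed because late cell cycle genes are known for an element named CHR (cell cycle genes homology region), and its letters recur in this list. Each window runs from 250 bases before to 50 bases after the RefSeq start, on build GRCm38.p6, and capitals mark TTTGAA or its reverse complement TTCAAA. The 3 genes were printed because their windows hold the letters, so they do not show how often the letters occur. Bub1, a mitosis gene with a larger difference (-4.18) than Cenpf, had no window found to hold them. They lie at chr7:135716330-135716629 (Mki67, minus strand), chr10:69352863-69353162 (Cdk1, minus strand) and chr1:189688037-189688336 (Cenpf, minus strand).
Mki67: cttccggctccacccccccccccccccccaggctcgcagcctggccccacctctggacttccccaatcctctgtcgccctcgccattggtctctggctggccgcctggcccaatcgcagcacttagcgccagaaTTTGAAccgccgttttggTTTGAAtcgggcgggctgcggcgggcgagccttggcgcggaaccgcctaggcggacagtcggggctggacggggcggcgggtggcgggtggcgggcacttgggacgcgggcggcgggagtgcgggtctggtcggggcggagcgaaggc
Cdk1: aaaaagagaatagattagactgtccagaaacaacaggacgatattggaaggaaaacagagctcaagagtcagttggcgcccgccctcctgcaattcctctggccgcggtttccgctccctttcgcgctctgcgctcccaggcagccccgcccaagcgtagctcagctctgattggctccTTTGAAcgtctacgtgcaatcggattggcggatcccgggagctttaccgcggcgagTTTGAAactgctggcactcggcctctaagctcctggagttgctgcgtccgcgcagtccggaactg
Cenpf: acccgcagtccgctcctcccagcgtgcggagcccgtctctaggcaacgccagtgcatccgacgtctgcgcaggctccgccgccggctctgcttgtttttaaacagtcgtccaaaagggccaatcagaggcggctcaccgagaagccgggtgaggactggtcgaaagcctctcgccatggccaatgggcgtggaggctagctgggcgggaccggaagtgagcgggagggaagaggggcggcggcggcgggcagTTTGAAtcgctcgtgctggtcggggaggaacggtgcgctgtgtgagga
TTTGAA on either strand was found in the windows of 14 of 19 mitosis genes with a RefSeq window (73.7%), against 1236 of 9179 genes in all (13.5%). The palindrome CACGTG, an E-box, was found for 5 of 17 circadian clock genes (29.4%), against 1091 of 9179 (11.9%). The palindrome TGACGTCA, a cyclic AMP response element, was found for 2 of 14 immediate early genes (14.3%), against 343 of 9179 (3.74%). None of the 3 motifs contains another, and all 3 were picked with the expression values in view. A match says only that the letters are there.

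DNA replication genes were lower for 16 of 24 members and higher for 1. Uhrf1, which guides maintenance methylation, had -1.69, -1.23 and -2.06 in adults, against 1.60 to 1.89 (median 1.78) at P0. Rrm2, a subunit of the enzyme that makes deoxynucleotides, differed by -3.20 and Mcm3, of the replicative helicase, by -2.17. Ccne1, a cyclin of the start of replication, was the member called higher, at 1.25. The smallest difference was that of Fen1, a flap nuclease also used in DNA repair (0.34).

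Progenitor and new neuron genes that were called were lower in adults. Radial glia and neural stem genes were lower for 9 of 17 members and higher for 0. Fabp7, a fatty acid binding protein of radial glia, had 4.12, 4.44 and 5.19 in adults, against 9.25 to 9.55 (median 9.45) at P0. Sox4 and Sox11, factors of newborn neurons, differed by -4.88 and -4.80. Of 13 new neuron and proneural genes, 9 were lower and 0 higher. Nhlh2 had -4.05, -3.55 and -0.71 in adults, against 1.92 to 2.39 (median 1.99) at P0, and Neurog2, which commits progenitors to glutamatergic fate, had -3.18, -1.41 and -1.91, against 1.08 to 2.54 (median 1.70). For Eomes and Nhlh2 adult library 3, at -1.63 and -0.71, was the highest adult.

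Regional neuron classes differed from each other. Cortical projection layer factors were lower for 7 of 16 members and higher for 0, with Bhlhe22 at -2.37 and Bcl11b at -1.75. The smallest differences were those of Etv1 (0.26) and Tbr1 (-0.28), both factors of deep layers. Striatal projection genes were higher for 9 of 15 members and lower for 2. Ppp1r1b, the signalling protein DARPP-32, had 8.04, 8.29 and 8.14 in adults, against 5.08 to 5.56 (median 5.38) at P0, and Rasd2, a small GTPase of striatal neurons, differed by 4.89. The 2 lower members, 13.3% beside 16.2% of all genes, were the developmental factors Isl1 (-3.41) and Ebf1 (-3.17). Among 18 inhibitory neuron genes 6 were higher and 8 lower. Vip, Pvalb and Cck (3.17) stood on the higher side. On the lower side stood Reln (-1.73) and the factor Nkx2-1, which specifies medial ganglionic eminence cells. Nkx2-1 had -1.09, -0.92 and -0.27 in adults, against 1.74 to 2.49 (median 2.38) at P0. Calb2 was not called (-2.03).

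Chromatin and RNA regulators were mostly lower where they were called. Over all genes 16.2% were lower and 17.47% higher, and in the code 1 libraries 1611 of 12097 genes were lower. Of 26 remodeller genes, 8 were lower (30.8%) and 0 higher, and 5 were lower in the code 1 libraries. Smarce1, a BAF complex subunit, had 3.52, 3.46 and 3.64 in adults, against 5.49 to 5.82 (median 5.58) at P0. Chd7, a relative of Chd8, differed by -1.44. Chd5, the neuronal member of the family, was not called (0.21). Of 11 histone deacetylases, 4 were lower (36.4%), led by Hdac10 (-1.37) and Hdac2 (-1.24), and Hdac11 was higher (1.58). Only 1 of the 11 was lower in the code 1 libraries. Of 10 Polycomb repressive complex 2 genes, the methyltransferase Ezh2 was lower, with 0.88, 1.26 and 0.69 in adults, against 4.19 to 4.79 (median 4.37) at P0, and its relative Ezh1 was higher, with 4.44, 4.28 and 4.29, against 3.03 to 3.25 (median 3.12). No other member of that complex was called, so the share was 10% in each direction, beside 17.47% higher and 16.2% lower over all genes. DNA methylation genes were lower for 6 of 13 members (46.2%) and higher for 1 (7.69%). Dnmt3b stood at -2.61, Tet1 at -2.04 and the higher member Gadd45b at 3.23. Splicing regulators were lower for 9 of 26 members (34.6%) and higher for 2 (7.69%). Tra2b (-2.11) and the neuronal repressor Ptbp2 (-1.92) were lower, and Mbnl2, which acts in the adult splicing programme, was higher (3.35).

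Fetal growth genes were lower for 8 of 14 members and higher for 0. After H19 came Igf2bp2, an RNA-binding protein of fetal cells, at -1.53, -1.29 and -1.94 in adults, against 2.53 to 3.07 (median 2.91) at P0, then Myc (-3.84) and Mycn (-3.40). Igf1r, the receptor for insulin-like growth factors, was level at 0.07.

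Energy genes differed by pathway. Glycolysis and lactate genes were called higher for 15 of 22 members and lower for 0, with a median of 1.34. Eno2, the neuronal enolase, had 9.25, 9.21 and 9.20 in adults, against 5.64 to 5.94 (median 5.83) at P0, and Aldoa, an aldolase, had 10.11, 10.25 and 10.08, against 7.09 to 7.40 (median 7.26). Pgk1 differed by 3.52 and Gapdh by -0.04, but reads of both could be shared with processed pseudogenes, so these values are uncertain. Respiratory chain genes were called higher for 7 of 34 and lower for 0, with a median of 0.62. That share of 20.6% lies near the 17.47% of all genes. Cholesterol genes went the other way, with 8 of 21 lower (38.1%) and 2 higher (9.52%), beside 16.2% and 17.47% of all genes. Sqle, the squalene epoxidase of cholesterol synthesis, was lower (-1.79), while Cyp46a1, which removes cholesterol from neurons, had 7.52, 7.48 and 7.27 in adults, against 4.24 to 4.73 (median 4.58) at P0.

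Clock genes were higher for 13 of 19 members and lower for 1, with a median of 1.92. Hlf and Dbp, output factors of the clock, had 6.07, 5.89 and 5.77 and 5.70, 5.71 and 5.63 in adult libraries, against 1.41 to 2.19 (median 2.05) and 1.58 to 2.60 (median 1.93) in P0 libraries. Bhlhe41 differed by 3.28 and Per3 by 3.25. Arntl (-0.15) and Cry1 (-0.12) were not called. The hour of dissection is not given in the labels. Of 7 MHC class I and interferon genes, 4 were higher (57.1%), with H2-K1 at 2.11, and 1 (14.3%), Ifitm2, was lower at -1.96. Among 9 neurotrophin genes 3 were higher (33.3%) and 2 lower (22.2%), beside 17.47% and 16.2% of all genes. Bdnf had 2.86, 4.06 and 2.53 in adults, against -0.63 to 0.05 (median -0.33) at P0, and Ntf3, the neurotrophin of early development, had -1.90, -0.82 and -0.54, against 2.93 to 3.59 (median 3.15). Of 33 other autism risk genes, 4 were lower, led by Asxl3 (-2.77) and Auts2 (-1.87), and Shank3 was higher (1.81). Those shares were 12.1% lower and 3.03% higher, beside 16.2% and 17.47% of all genes, and 7 members rather than 4 were lower when libraries were shifted to a common median or quantile normalized.

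Pairs of an early and a later gene, most of them of 1 family, were compared within each library, as the log2 ratio of the later over the earlier gene. Of 16 pairs with both genes kept, the ratio lay wholly higher in adults for 14, wholly lower for 1 and overlapped for 1. Ranges without overlap, in either direction, were found for 72.7% of single genes, and no share was taken over other pairs. A higher ratio can rest on the earlier gene alone. In Chd5 over Chd7 and Igf1 over Igf2, for instance, the later gene was not called (0.21 and -0.31). For Tubb4a over Tubb2b it was 3.60 to 4.05 (median 4.04) in adults, against -2.23 to -1.79 (median -2.10) at P0. For Ezh1 over Ezh2 it was 3.02 to 3.60 (median 3.56) in adults, against -1.63 to -0.95 (median -1.27) at P0. For Scn1a over Scn3a it was 2.46 to 2.76 (median 2.49), against -2.10 to -1.54 (median -1.74). In these 3 pairs the later gene was the lesser at birth and the greater in adults. Grin2a over Grin2b moved towards 0, at -0.48 to -0.36 in adults, against -5.51 to -4.15 at P0. Slc17a7 over Slc17a6 stood at 6.75 and 6.70 in the first 2 adult libraries and 4.27 in adult library 3, against 0.66 to 1.39 at P0. Slc12a5 over Slc12a2 was 2.95 to 3.72 in adults, against 1.22 to 2.24 at P0, although Slc12a2, the chloride importer NKCC1, was itself not lower in adults (0.76). The exception was the BAF pair, where Actl6b over Actl6a was 2.48 to 2.91 in adults, against 3.30 to 3.61 at P0, with the neuronal subunit Actl6b itself called lower (-1.05). Dlg4 over Dlg3 was 2.59 to 2.77 in adults and 2.67 to 2.83 at P0.

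**Figure D4:**
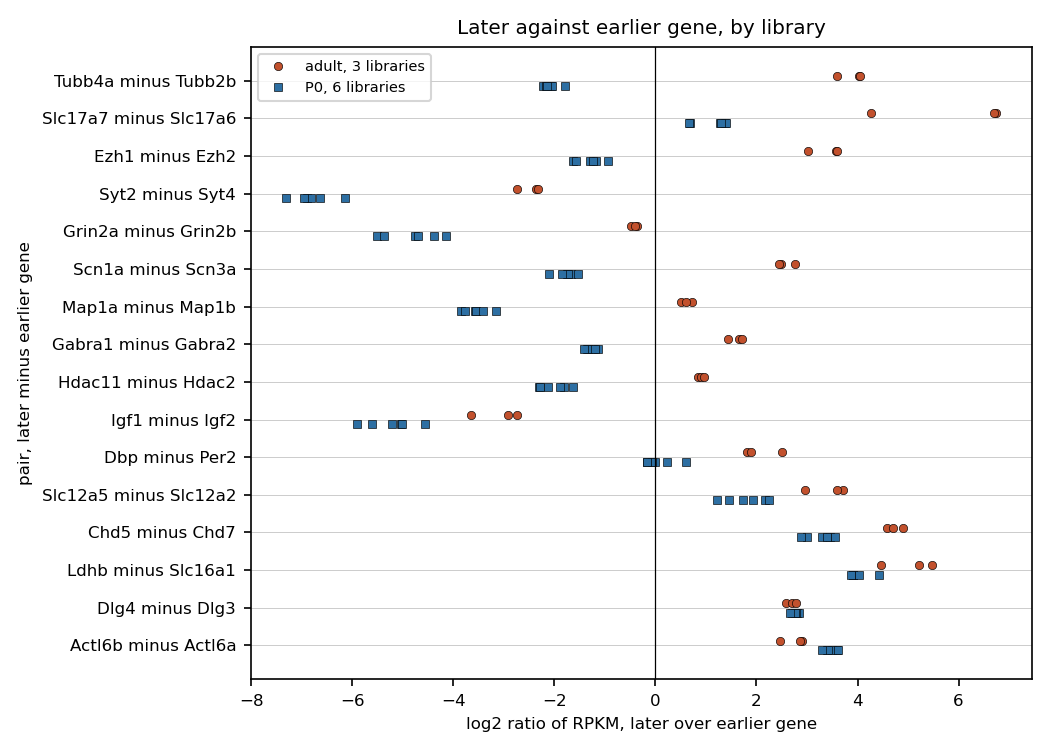
Log2 ratio of RPKM of the later over the earlier gene (horizontal axis) for 16 pairs (vertical axis, ordered by the difference between stages), with 3 adult libraries as circles above 6 P0 libraries as squares. Circles lie right of every square in 14 pairs, overlap in Dlg4 over Dlg3 and lie left in Actl6b over Actl6a.

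The choroid plexus and ependyma list was the one most altered by a single library. Ttr, the transthyretin that choroid plexus secretes, had 1.72, 3.34 and 10.04 in adult libraries 1, 2 and 3, against 8.18 to 9.57 (median 9.28) at P0, so adult library 3 lay above every P0 library. Kl, an ageing-linked membrane protein of choroid plexus, had -0.83, -0.64 and 2.75 in adults, against -1.34 to -0.40 (median -0.71) at P0. With all 3 adults, 2 of the 10 genes were called lower and 1 higher. Those shares of 20% and 10% stand beside 16.2% and 17.47% of all genes. Without adult library 3, 8 genes were lower, and without P0 library 5, 4 genes were. The summed level was 115, 117 and 1279 RPKM in adult libraries, against 335 to 828 RPKM at P0. Foxj1, a factor of ciliated ependymal cells, was lower in all 3 adults, at 2.17, 2.09 and 2.84, against 3.90 to 4.36 (median 4.16) at P0.

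Adult library 3 also held genes that, from general knowledge, mark thalamus and neighbouring regions, and that were chosen here after their values were seen. Tcf7l2 had -0.23, -0.33 and 3.68 in adult libraries, against 2.33 to 5.16 (median 4.36) at P0, Prkcd had 2.12, 2.48 and 5.43, against 3.60 to 3.96 (median 3.70), and Irx2 had -5.02, -5.02 and 1.39, against -2.28 to 3.03 (median -0.18). The spread over P0 libraries was wide as well, since P0 library 3 had Irx2 at 3.03 and P0 library 2 at -2.28. The extent of each dissection is not given in the labels, and its part in these differences was not tested. Calb2, a calcium-binding protein of some interneurons and of thalamus, had 3.40, 3.69 and 5.87 in adults, against 5.24 to 5.80 (median 5.72) at P0.

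**Figure D5:**
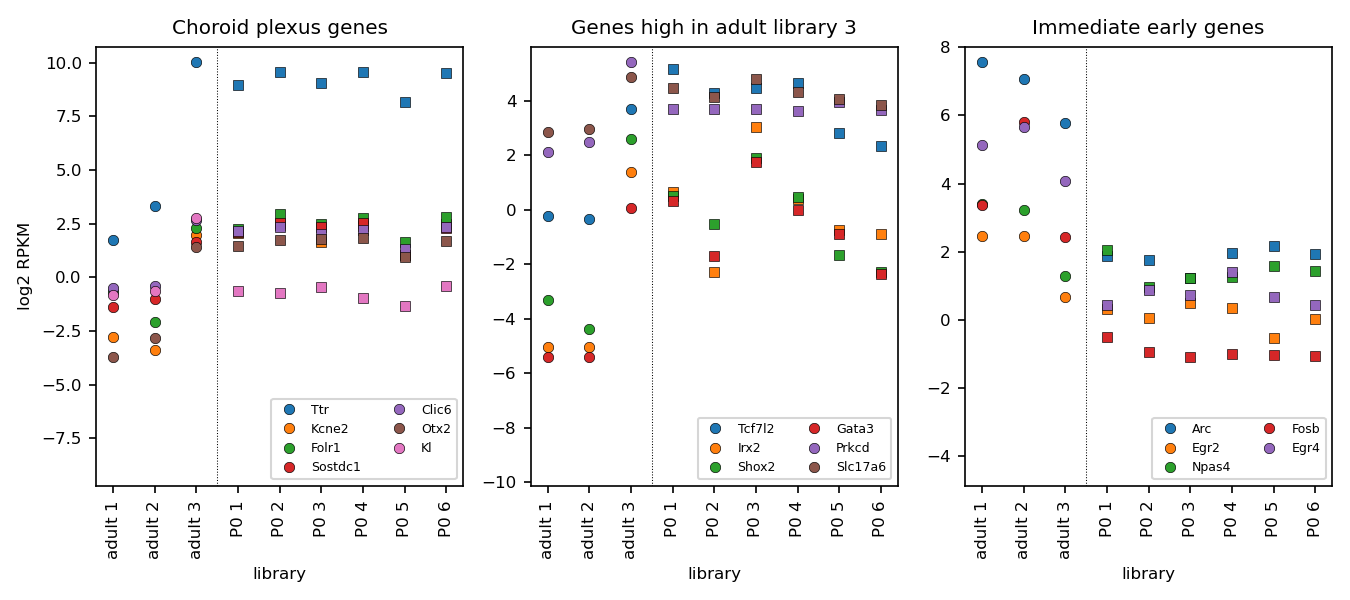
Levels in log2 RPKM (vertical axis) in 3 adult libraries (circles) and 6 P0 libraries (squares) along the horizontal axis, for choroid plexus genes, genes high in adult library 3 and immediate early genes. Adult library 3 stands above the other adults in the first 2 panels, with Ttr at 10.04 against 1.72 and 3.34, and below them in the third, with Arc at 5.77 against 7.58 and 7.06.

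The same comparison was made in the code 1 libraries, 3 adult against 5 P0, which share no library with the code 2 set. Sex differed between the stages there as well. Ddx3y was above 0 in 2 of 3 code 1 adult libraries and in 0 of 5 code 1 P0 libraries. Any part of sex in the calls shared by the codes was not tested. There 2005 genes were called higher and 1611 lower, 29.9% in all. Of the genes called higher, 1809 were called in both codes, 85.6% of the code 2 and 90.2% of the code 1 calls. Of those called lower, 1437 were shared, 73.2% of the code 2 and 89.2% of the code 1 calls. No gene was called in opposite directions. Among genes lower in code 2, H19, Igfbpl1, Col3a1, Sox11 and Neurog2, for instance, were not called in code 1. The first code 1 adult library carried juvenile levels of many genes, for instance Dcx at 6.15, against 2.17 and 2.22 in the other code 1 adults. Without it the code 1 count of lower genes was 1961, of which 1641 were shared, 83.6% of the code 2 and 83.7% of the code 1 calls.

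Where the codes differed most, choroid plexus genes and regional factors led. The adult minus P0 difference of Ttr was -5.94 in code 2 and -2.26 in code 1, with code 1 adults at 6.99, 6.11 and 10.19. For Kcne2, a channel subunit of choroid plexus, the differences were -4.99 and -1.74, and for Aqp1, a water channel there, -4.36 and -0.91. For Lhx9, a regional factor, they were -6.41 and -3.16. Lmx1a, another, had -5.46, -5.46 and -2.28 in code 2 adults, against -1.60 to 0.34 (median -0.77) at P0, and since adult libraries 1 and 2 shared its lowest value, no difference is given. These 5 genes vary between libraries of the same stage and code, with Ttr spanning 1.72 to 10.04 in the code 2 adults. The difference between the codes was not tested. Myelin, microglia and mitosis medians were alike in size, at 5.28, 2.19 and -2.98 in code 2 and 5.42, 2.50 and -2.91 in code 1.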

How the data were processed

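Forebrain RNA of 44 libraries was analysed from the authors' deposited table of log2 RPKM values for 12158 genes. The labels call the values log RPKM, and base 2 was assumed. In each library the step above a floor shared by libraries was chosen to make the most low values whole. Of the 13 to 26 low values used per library, 88.2% to 96.2% then came out whole within 0.03 of a step. No other base was tried, so this fit does not choose between bases. The prior count behind the log is unknown, so differences of low genes are understated. The submitters' processing notes name STAR 2.4.2a and bcl2fastq, with build mm9, and also list BWA 0.7.13 and MACS2 2.10. Not given in the sources used here were the read counter, the annotation and any scaling between libraries. Read totals are not in the table, so no counting interval is given. The Chd8 peak list was not used.

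The codes in the column names match no label, so the libraries could not be tied to the 10 labelled RNA samples. The labels do not tie each library to its own animal, so ranges may be technical in part. They are described by stage and code with medians and ranges, and with no mean, SD or p-value. Low genes were left out when their 9 libraries averaged -2 log2 RPKM or less (61 of 12158). A call needed ranges without overlap and medians at least 1 log2 unit apart. The rule was also tried on simulated libraries with noise drawn independently for each gene. Those held no shifts shared by genes of a library, so they are not used as support for the calls. The members, the 40 gene lists and the 17 pairs of genes were chosen with earlier results of these data known. Genes were named by a rule that takes Chd8, the 12 largest called differences in each direction, up to 4 called members of each list with its smallest differences, both members of each pair and the 6 largest gaps between codes. Some of the genes it names are not reported here. The regional genes, Emx1, Kl, Npas4, Calb2, Gh, Xist, Ddx3y and members named to complete a count were chosen after their values were seen. Alternatives were other scalings, filters, thresholds, libraries left out and the code 1 libraries. Promoter windows came from RefSeq on GRCm38.p6, for 9179 of the genes kept. Computations used Python 3.11.15, numpy 2.4.6 and pandas 2.3.3.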

Additional observations from a re-analysis of the deposited data

Results flagged for a closer look

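In 12 of 181 genes named by the rule, a single code 2 P0 library lay far from the other 5 relative to the spread of all 6, where chance alone would give such a gap in about 1 in 20 genes (9.05). P0 library 1 accounted for 5 of them. It was the highest for St8sia2 (6.93, against 6.44 to 6.62 in the other 5), Kcna1 (1.12, against 0.60 to 0.73), Fosb (-0.51, against -1.09 to -0.95) and Tet1 (1.85, against 1.33 to 1.50), and the lowest for Tubb2b (10.30, against 10.49 to 10.58). P0 library 3 was the highest for Opalin (-2.79, against -3.56 in all of the other 5) and Nhlh2 (2.39, against 1.92 to 2.08), and the lowest for Cdc6, a loader of the replicative helicase (-1.21, against -0.71 to -0.44). P0 library 5 was the highest for Smarca1, an ISWI remodeller (4.57, against 4.29 to 4.34), and the lowest for Ifitm2 (5.07, against 5.51 to 5.76). P0 library 6 was the highest for Smarce1 (5.82, against 5.49 to 5.61) and the lowest for Dlg3 (4.80, against at least 4.92). All 12 gaps are under 1 log2 unit. For Opalin the other 5 libraries shared the lowest value, so any higher value would have been flagged. Dlg3 had no call to lose, and in none of the other genes did leaving out the library end the call or turn its direction.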

How the results depend on the processing

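Calls rest mainly on the size threshold. With ranges apart and no size threshold, 4447 genes were higher and 4344 lower in adults, against 2113 and 1964 as reported, and with medians at least 2 log2 units apart 793 were higher and 634 lower. Leaving out each library in turn gave 2100 to 2142 higher and 1945 to 1999 lower. Shifting libraries to a common median gave 1949 higher and 2168 lower, and quantile normalization 1916 and 2039, so which direction had more calls turned with the scaling. The other filters, a pseudocount of 1 RPKM, a gap of at least 0.5 between ranges and all adult and P0 libraries together moved neither total by over 1.5 times. Against only P0 libraries 5 and 6, in which Ddx3y is above 0 as in the adults, 2231 genes were higher and 2115 lower, and against only P0 libraries 1 to 4 2102 and 1932 (both chosen after seeing the data). Of 181 named genes, 0 changed direction and 7 lost their call under at least 1 alternative (Sox10, Aqp1, Cacng2, Cdc6, Chd7, Dnmt3b and Lmx1a). Of 80 counts of list members, 11 moved by over 1.5 times under a scaling, a library left out or the pseudocount, and 10 of these were counts of 2 or fewer. Beside those given with their lists, myelin had 1 lower member under both scalings and respiratory and choroid plexus genes 1 each under quantile normalization, presynaptic genes had 2 lower and new neuron genes 1 higher without adult library 3, and radial glia genes had 1 higher without adult library 1. Pairs with a higher ratio in adults numbered 13 under quantile normalization and 14 otherwise. No paired analysis was possible because the columns carry no replicate numbers that the labels explain. Depth limits genes near their floor, whose differences are understated.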

Other observations

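Single libraries carried transcripts not described above. Gh, the growth hormone of the pituitary, stood at 9.75 in adult library 1, against -0.86 and -2.41 in the other code 2 adults, and all 6 P0 libraries were at its lowest value of -3.58. Baz1a, a subunit of an ISWI remodelling complex, had 1.32 in adult library 2, against -0.77 and -0.82 in adult libraries 1 and 3. Th, the enzyme that starts catecholamine synthesis, had 2.79 in adult library 3, against 0.71 and 0.70 in the other adults. Dlk1, an imprinted gene, had 1.70, -0.69 and 2.51 in the adult libraries, against 1.02 to 2.37 at P0.

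Within the code 2 P0 libraries some genes also split by the second code. Tcf7l2 was at 2.82 and 2.33 in P0 libraries 5 and 6, which carry second code 2, against 4.27 to 5.16 in P0 libraries 1 to 4. Eomes ran the other way, at 3.80 and 4.06 in libraries 5 and 6, against 2.29 to 3.37 in libraries 1 to 4. Mid1, an X-linked gene, was at 2.51 and 2.46 in libraries 5 and 6, against 6.03 to 6.76 in libraries 1 to 4, and at 2.15 to 3.24 in the 3 adults. All 5 code 1 P0 libraries carry second code 1 and have Xist above 0. They ran from 1.90 to 5.78 for Tcf7l2, from 2.82 to 4.52 for Eomes and from 2.69 to 6.40 for Mid1. These genes were picked after their values were seen, and any part of sex or dissection was not tested.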
